A study of Mus musculus with 24 samples.

Results

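Small RNA and polyA RNA had both been sequenced from 11 mouse hearts, so that microRNAs and messenger RNAs could be set against each other animal by animal. The 11 hearts were those with a column in both deposited tables. They account for 22 of the 24 samples of the series and for 11 of its 13 animals. MicroRNA rows with a mean of at least 10000 FPKM and mRNA rows with a mean of at least 1 FPKM were used, which kept 155 of 568 small RNA rows and 13035 of 23998 polyA rows. FPKM is a fragment count scaled to the length of the transcript and to the size of the library.

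The mice were CD1 animals with a human MYL2 transgene, the gene of the ventricular regulatory light chain of myosin. Wild type transgenic mice (wtTg) had the normal human allele and mutant transgenic mice (mutTg) the mutated one. The genotype field of the labels was RLC-47K L6 for every sample, and only the sample names told wild type from mutant. In the groups with virus, pups of 3 days were injected with adeno-associated virus serotype 9 (AAV9), and all hearts are from animals of 4 months. The control virus was AAV9 that did not express the M7.8L shRNA, and the shRNA group received AAV9 that did. The paired hearts comprised wild type with control virus (2 hearts, replicates 2 and 3), untreated mutant (2 hearts, replicates 9 and 11), mutant with control virus (3 hearts, replicates 1 to 3) and mutant with shRNA (4 hearts, replicates 5 to 8). All 4 groups carry a human transgene beside the mouse genes. No source used here gives the promoter of the transgene or the region of the heart.

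A microRNA is cut from a hairpin in a longer transcript and guides silencing proteins to mRNAs through its seed, the bases near its 5′ end. Many microRNAs lie inside other genes and can be made from the same transcript as that host gene, while others have their own promoters. In heart muscle the best known of these are the microRNAs of the myosin heavy chain genes: mir-208a in Myh6, mir-208b in Myh7 and mir-499 in Myh7b. Targets that a microRNA represses are often, but by no means always, lowered at the mRNA level. The host and target lists used here are lists of pairs known from the field, not pairs found in these data.

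The mature sequences of the microRNAs on which the results turn are shown to tell which of them share a seed, and thus a set of possible targets. They were taken from RefSeq (GRCm38.p6), and capitals mark the seed, bases 2 to 8. miR-208a and miR-208b share 1 seed, and miR-30e and miR-30c share another. The seed of miR-499 was found in no other mature mouse microRNA of the table. It differs from that of miR-208a and miR-208b only in base 8, and the target list treats these microRNAs as 1 family.
mmu-miR-208a-3p: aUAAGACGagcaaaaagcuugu
mmu-miR-208b-3p: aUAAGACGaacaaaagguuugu
mmu-miR-499-5p: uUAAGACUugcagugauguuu
mmu-miR-30e-5p: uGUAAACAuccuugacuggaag
mmu-miR-30c-5p: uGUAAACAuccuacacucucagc
mmu-miR-29a-3p: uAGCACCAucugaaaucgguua
mmu-miR-126a-3p: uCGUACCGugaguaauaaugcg
mmu-miR-21a-5p: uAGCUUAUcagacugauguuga
mmu-miR-27b-3p: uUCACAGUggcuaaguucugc
mmu-miR-10a-5p: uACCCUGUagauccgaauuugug
Small RNA rows are named by hairpin gene. Of the 155 rows, 138 matched a RefSeq entry, and 18 of these have a mature sequence that another hairpin gene also makes, as the miR-30c gene pair does. No source used here says how the authors divided reads between such genes, and the level of a single row such as mir-30c-1 is uncertain.

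The number of reads behind each library is unknown, because the tables hold FPKM without counts, and no counting error can be given. Libraries were aligned on the median of rows above 0 in every library, which moved polyA libraries by -0.52 to 0.75 and small RNA libraries by -0.04 to 0.13 on the log2 scale. Levels below are these aligned FPKM (for microRNAs in MFPKM, 1 MFPKM being 1000000 aligned FPKM), and correlations are of log2(aligned FPKM + 1) for mRNA and log2(aligned FPKM + 1000) for microRNA. The tissue label held in all 11 hearts: 6 cardiomyocyte markers summed to between 33470 and 72530 aligned FPKM. Cardiac α-myosin, Myh6, was nevertheless listed at 0 in 3 hearts (wild type 2, untreated mutant 11 and control-virus mutant 3). A 0 in these tables can be a failed estimate.

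The hearts fell into 2 separate sets, and the same hearts formed each set in both assays. The first principal component held 62.6% of the variance of the mRNAs and 28.0% of that of the microRNAs. On both, the 2 wild type hearts and shRNA hearts 5, 6 and 7 lay on one side, and the 5 mutant hearts without shRNA lay on the other together with shRNA heart 8. The set of 5 is called the lower set here and the set of 6 the upper set. The sets were drawn from the mRNA values themselves, so many rows would separate them. A row without overlap between the sets is therefore no finding about that row, and the share of such rows was not counted. Sex moved with the sets. By the level of Ddx3y, a gene of the Y chromosome, all 5 hearts of the lower set were male, whereas the upper set held 5 female hearts and 1 male heart, untreated mutant 9. Wild type 3 also had the female marker Xist at 8.31 FPKM before alignment, where the other male hearts had 0.18 to 0.91. The female hearts had 37.5 to 124. The part of sex in the values below was not tested.

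**Figure D1:**
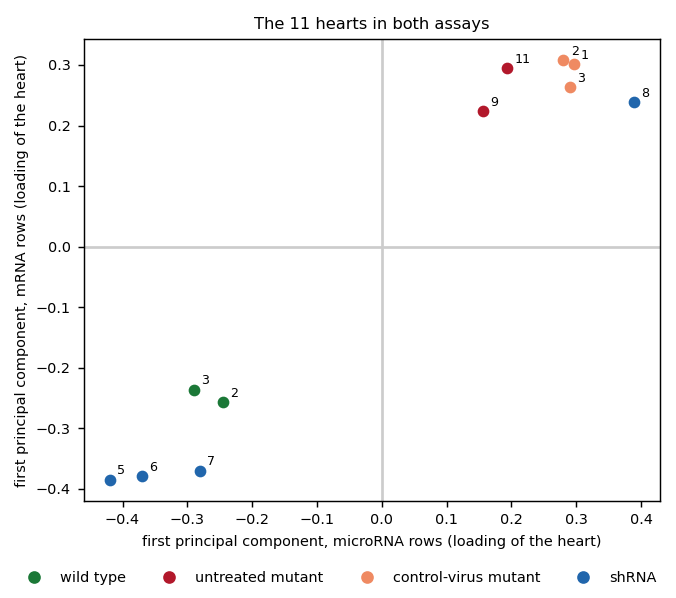
Loading of each of the 11 hearts on the first principal component of 155 microRNA rows (x axis) and of 13035 mRNA rows (y axis), both without units, coloured by group and numbered by replicate. The hearts lie in 2 clusters, with shRNA heart 8 among the mutant hearts without shRNA on both axes.

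Because of these 2 sets, a correlation over all 11 hearts holds the difference between the sets, and it is given as a description without a p-value. The test was made on values from which the mean of each group had been subtracted. Its p-value is exact, from the 576 ways of rearranging the hearts within their groups (two-sided, smallest possible p = 0.00174). shRNA heart 8 differs from its own group as much as the sets differ, so a correlation within groups still holds part of that difference. Values are therefore also given without shRNA heart 8, where 144 arrangements remain (smallest possible exact permutation p = 0.00694). For some pairs it is also given within the 6 hearts of the upper set.

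MicroRNAs and their host genes tended to be high in the same hearts. Of 91 listed pairs, 54 passed the filters, with 54 microRNA rows and 42 host genes. In the RefSeq annotation 47 of the 54 were found inside the gene on either strand, 41 of them on the same strand. The remaining 7 were not found inside it. Over the 11 hearts the correlation was positive for 40 of the 54 pairs (74.1%), with a median of 0.28, against 49.98% and a median of -0.00033 for the same microRNAs with all 13035 mRNAs. It was above 0.5 for 16 pairs (29.6%, against 16.2% of all microRNA and mRNA pairs) and below -0.5 for 1, mir-139 with Pde2a (r = -0.62), a pair named here after its value was seen. Within groups 37 pairs were positive, with a median of 0.17. When shRNA heart 8 was left out, 30 pairs were positive, with a median of 0.08. For 10 pairs (18.5%, where 6.45% of rows would be in a top 10) the host gene ranked its own microRNA among the 10 most correlated of the 155 rows. Within groups this held for 2 pairs (3.70%).

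No host pair passed the test within groups after adjustment. An exact p under 0.05 was reached by 3 pairs, 5.56% of the 54, while 7.41% of the same microRNAs' pairs with all mRNAs reached it. The smallest adjusted p (Benjamini-Hochberg over the 54 exact permutation p-values) was 0.19. The limma fit of every mRNA on 1 microRNA with a term for group (n = 11 hearts, Benjamini-Hochberg over 13035 mRNAs) called 1 of the 54 pairs, Myh7 for mir-208b, where 2.55% of all such pairs were called.

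**Figure D2:**
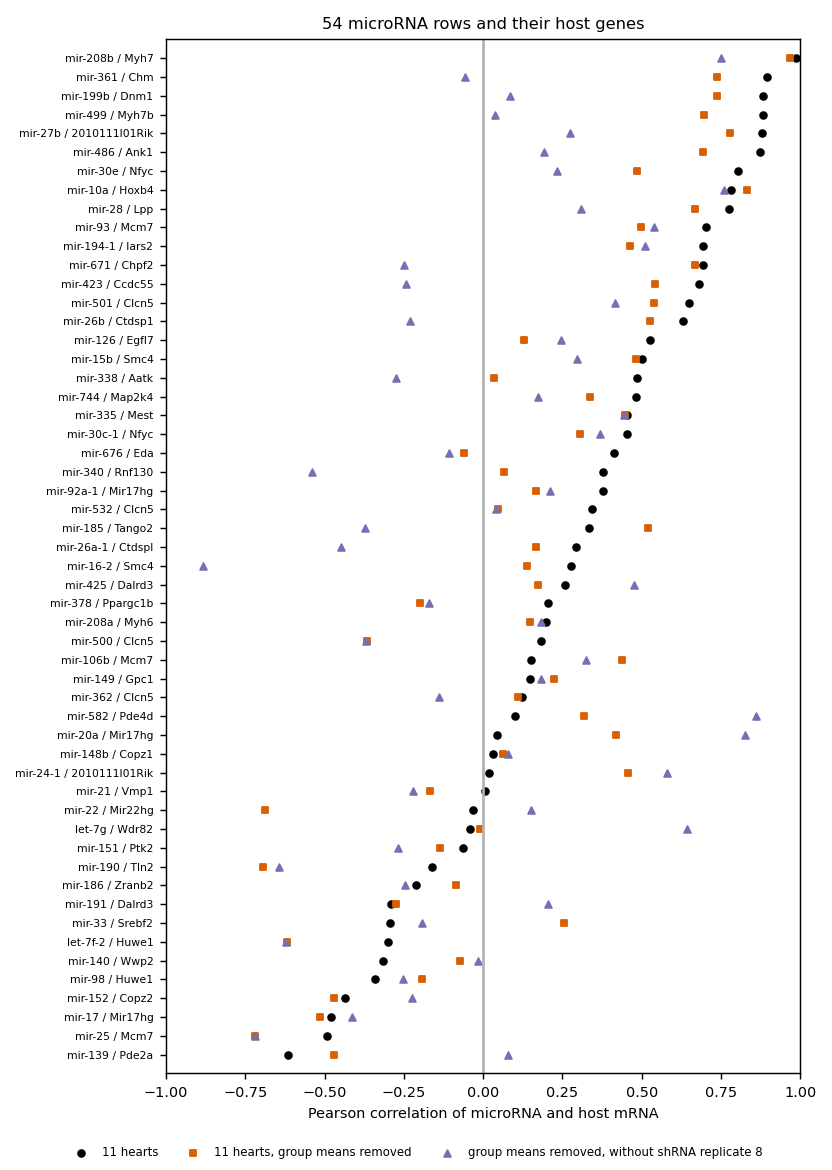
Pearson correlation between microRNA and host mRNA (x axis, no units) for the 54 pairs that passed the filters, in order of the value over 11 hearts (circles), with group means removed (squares) and, in addition, without shRNA replicate 8 (triangles). At the top, mir-208b with Myh7 stays at 0.75 without shRNA heart 8, whereas mir-499 with Myh7b goes from 0.88 to 0.04.

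Mir-208b and its host Myh7, the slow β-myosin heavy chain that marks hypertrophied mouse ventricle, formed the most closely linked pair. Mir-208b stood at 1.95 and 1.62 MFPKM in wild type hearts 2 and 3, at 42.6 and 46.9 in untreated mutants 9 and 11, and at 55.9, 37.8 and 41.4 in control-virus mutants 1, 2 and 3. The shRNA hearts 5, 6 and 7 had 1.58, 1.66 and 3.51 MFPKM, and heart 8 had 63.2 MFPKM. Heart 8 was thus the highest of all, and the other shRNA hearts overlapped the wild type hearts.
Myh7 was at 352 and 258 aligned FPKM in the wild type hearts, at 2399 and 2370 in the untreated mutants and at 2314, 1586 and 2172 in the control-virus mutants. In shRNA hearts 5 to 8 it was at 228, 407, 505 and 2598. The order of the sets was the same as for the microRNA, and even shRNA heart 7, the highest of the lower set for mir-208b, was the highest of that set for Myh7. The correlation was 0.99 over 11 hearts (Spearman's rho 0.95), and 0.97 within groups (exact permutation p = 0.0035, adjusted p = 0.19). It was 0.75 without shRNA heart 8 (exact permutation p = 0.14), and within the upper set 0.72 (exact permutation p = 0.090, n = 6). Among the 13035 mRNAs Myh7 ranked 5 for mir-208b, and among the 155 microRNA rows mir-208b ranked 1 for Myh7, overall and within groups. Each doubling of mir-208b within groups went with a rise of Myh7 by 0.59 on the log2 scale (SE 0.05, limma adjusted p = 0.000171).

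Mir-499 ran the other way, and so did its host Myh7b, a slow-type myosin gene that is less used for protein in the heart. Mir-499 was at 5.75 and 7.33 MFPKM in the wild type hearts and at 10.7, 9.45 and 10.9 MFPKM in shRNA hearts 5, 6 and 7. The 6 hearts of the upper set had 1.81 to 3.34 MFPKM, shRNA heart 8 being the highest of them. Myh7b was between 48.5 and 66.1 aligned FPKM in the lower set and between 21.3 and 34.6 in the upper set, with no overlap for either gene. The sets were drawn from values of these same hearts, so such a split is not particular to this pair. The correlation was 0.88 over 11 hearts and 0.70 within groups (exact permutation p = 0.12). Without shRNA heart 8 it was 0.04, and within the upper set 0.02, so the link between this pair rested on the distance between the sets. Mir-208a and Myh6, the fast α-myosin that adult mouse ventricle mainly uses, could be followed in the 8 hearts where Myh6 was above 0. There r was 0.78 overall and 0.56 within groups (exact permutation p = 0.27), against 0.20 and 0.15 with the 3 hearts at 0 kept in. Mir-208a itself ranged from 2.84 MFPKM in control-virus mutant 1 to 7.04 MFPKM in wild type 3, and every heart of the lower set was above every heart of the upper set.

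**Figure D3:**
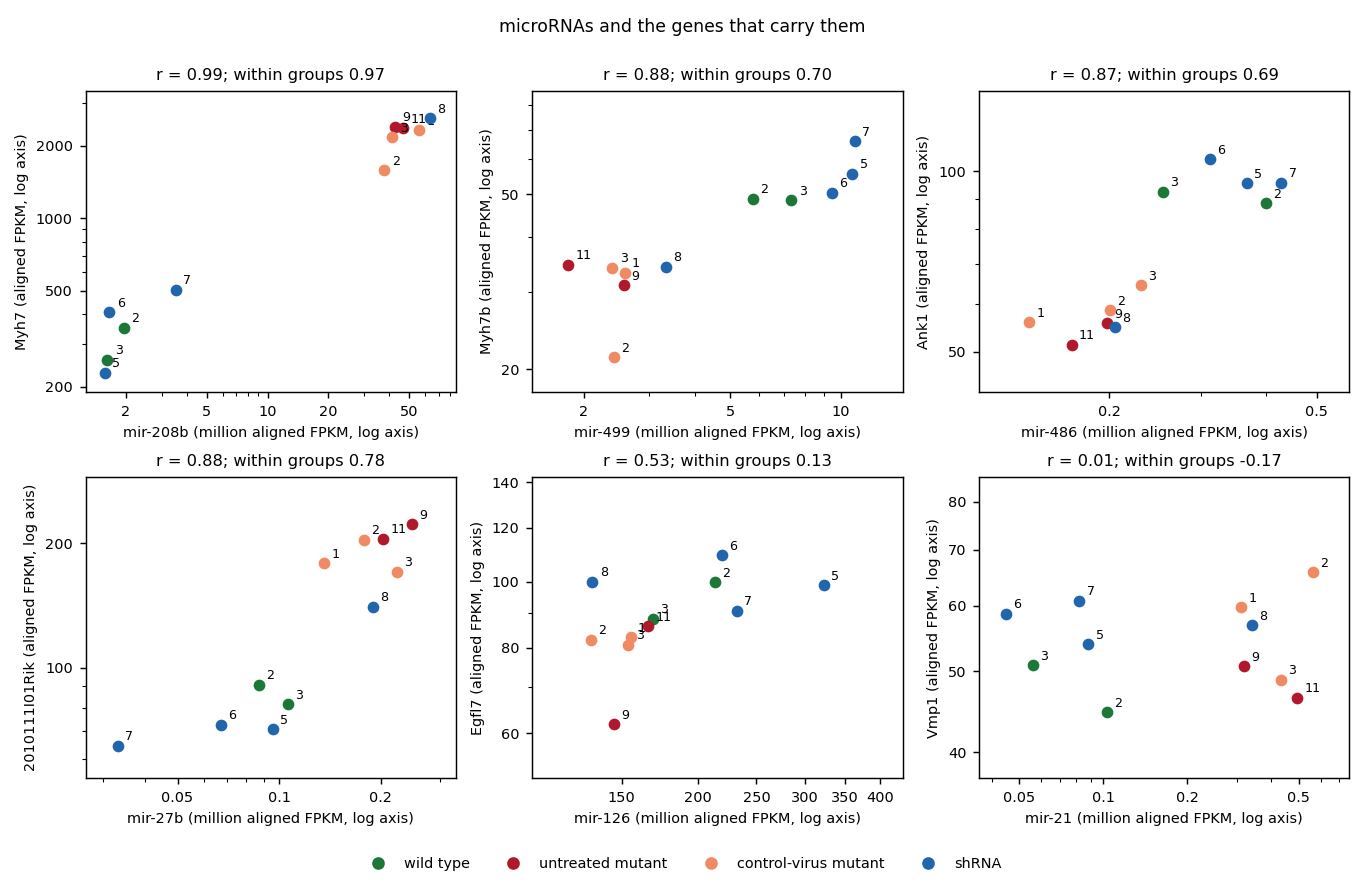
MicroRNA level (x axis, MFPKM, log axis) against host mRNA level (y axis, aligned FPKM, log axis) in each of 11 hearts for 6 pairs, coloured by group and numbered by replicate. Mir-208b, mir-499, mir-486 and mir-27b separate the 2 sets of hearts together with their hosts; mir-126 and mir-21 separate the sets while Egfl7 and Vmp1 overlap.

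Ank1, ankyrin 1, which ties membranes to the cytoskeleton in red cells and muscle, carries mir-486. Mir-486 lay between 0.254 and 0.428 MFPKM in the lower set and between 0.141 and 0.230 in the upper set, and Ank1 between 88.5 and 105 and between 51.4 and 64.5 aligned FPKM. The correlation was 0.87 over all 11 hearts, 0.69 within groups (exact permutation p = 0.094) and 0.19 without shRNA heart 8. Mir-27b and mir-24-1 lie together in 2010111I01Rik, the gene of an aminopeptidase. Mir-27b and this host were both higher in the upper set, at 0.136 to 0.248 MFPKM against 0.033 to 0.107 and at 141 to 223 aligned FPKM against 64.7 to 91.0. Their correlation was 0.88 overall and 0.78 within groups (exact permutation p = 0.12), and 0.27 without shRNA heart 8. Mir-24-1, from the same cluster and listed at 0 in control-virus mutant 3, had r = 0.02 overall and 0.46 within groups (exact permutation p = 0.030). Within groups it was 0.83 without that heart, 0.58 without shRNA heart 8, and the rank correlation was 0.81. Mir-199b lies on the opposite strand of Dnm1, the gene of dynamin 1, and no source used here says whether polyA reads were counted by strand. Their correlation was 0.88 over all 11 hearts, 0.74 within groups (exact permutation p = 0.11) and 0.08 without shRNA heart 8.

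Other well-known host pairs ranged from positive to none or negative. Mir-21 has a promoter of its own inside Vmp1, an autophagy gene. It was at 0.312 to 0.563 MFPKM in the upper set and at 0.045 to 0.103 MFPKM in the lower set. Vmp1 overlapped fully, at 46.5 to 65.8 and 44.6 to 60.8 aligned FPKM, and the correlation was 0.01 overall and -0.17 within groups (exact permutation p = 0.55), or 0.15 with the values as deposited and -0.22 without shRNA heart 8. Mir-126 in Egfl7, both marks of endothelial cells, had r = 0.53 overall and 0.13 within groups (exact permutation p = 0.71), and 0.25 without shRNA heart 8. With the values as deposited, without alignment, the value within groups was -0.87 (exact permutation adjusted p = 0.15), so its direction depends on the scaling. In bulk tissue, fewer endothelial cells and less RNA per endothelial cell cannot be told apart. Mir-30e with Nfyc, a subunit of the NF-Y transcription factor, had r = 0.80 overall and 0.49 within groups (exact permutation p = 0.23), 0.23 without shRNA heart 8, and -0.13 within groups with the values as deposited. Mir-30c-1 from the same gene had 0.45, 0.31 and 0.37 without shRNA heart 8. Mir-378 with Ppargc1b, a coactivator of mitochondrial genes, had 0.20 overall and -0.20 within groups (-0.17 without shRNA heart 8), and mir-140 with Wwp2, a ubiquitin ligase, -0.31 and -0.07 (-0.02 without shRNA heart 8), or 0.38 within groups with the values as deposited. The pairs of mir-26a-2 with Ctdsp2 and mir-214 with Dnm3os were below the filters.

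Of the pairs with the smallest p-values within groups, several changed little when shRNA heart 8 was left out. Among them were mir-10a with Hoxb4, mir-25 with Mcm7 and mir-190 with Tln2. Mir-10a and Hoxb4 lie in the Hoxb cluster, which sets position along the body axis, and the microRNA lies next to Hoxb4 and not inside it. Mir-10a ranged from 1.78 MFPKM in shRNA heart 5 to 8.70 MFPKM in wild type 3, and Hoxb4, at 0.276 to 1.57 aligned FPKM, was lowest in shRNA hearts 7 and 5. Hoxb4 was thus near the 1 FPKM that is added before the logarithm. The correlation was 0.78 over all 11 hearts, 0.83 within groups (exact permutation p = 0.042, adjusted p = 0.54), 0.76 without shRNA heart 8 and 0.80 within the upper set (exact permutation p = 0.079). Over 11 hearts r was 0.40 without the 2 hearts farthest from the median of mir-10a, so the overall value rested on those 2 hearts. Mir-501 with Clcn5, a chloride transporter, had 0.65 over all 11 hearts, 0.54 within groups and 0.41 without shRNA heart 8. Mcm7, a subunit of the replication helicase, carries mir-25, mir-93 and mir-106b. Mir-25 was negative (-0.49 over all 11 hearts, -0.72 within groups, exact permutation p = 0.050), whereas mir-93 was positive (0.70 and 0.50) and mir-106b as well (0.15 and 0.44). Mir-93 and mir-106b are named after their values were seen. Mir-17 with its host transcript Mir17hg (-0.48 over all 11 hearts, -0.52 within groups, exact permutation p = 0.073) and mir-190 with Tln2, talin 2 (-0.16 and -0.69, exact permutation p = 0.063), were negative too. Mir-190 was listed at 0 in 4 hearts. The values within groups without shRNA heart 8 were -0.72 for mir-25, 0.54 for mir-93, 0.32 for mir-106b, -0.41 for mir-17 and -0.64 for mir-190.

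Listed targets showed no common direction. Of 970 listed pairs, 634 passed the filters, with 75 microRNA rows and 192 target genes. Over 11 hearts 348 (54.9%) had a negative correlation, against 50.2% for the same microRNAs with all mRNAs, and the median was -0.09. Within groups 324 (51.1%, against 49.95%) were negative, with a median of -0.008. When shRNA heart 8 was left out, 300 of the 614 pairs still above the filters were negative, with a median of 0.01. An exact p under 0.05 within groups was reached by 43 pairs (6.78%), 21 negative and 22 positive, where 7.8% of all pairs of these microRNAs reached it. None passed after adjustment over the 634 pairs (smallest Benjamini-Hochberg adjusted value of the exact permutation p 0.28). The limma fit with a group term called 21 pairs, 9 negative and 12 positive, and 3.42% of all pairs of these microRNAs were called in it. The share of target pairs with low p-values was therefore close to that of any mRNA. A microRNA that acts on translation would not be seen in these data.

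**Figure D4:**
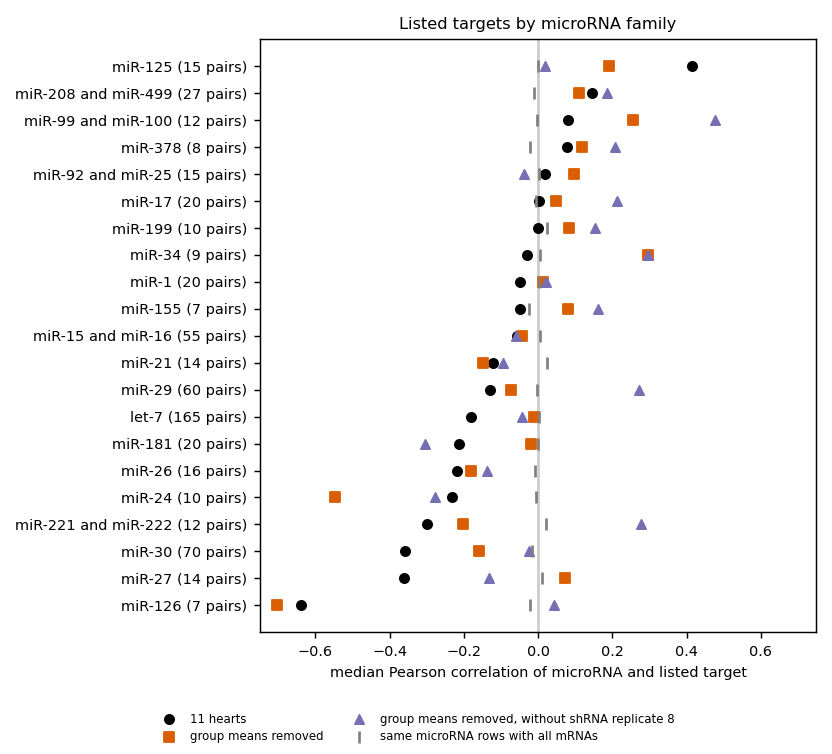
Median Pearson correlation (x axis, no units) between microRNAs and their listed targets for each family with 7 or more pairs, over 11 hearts (circles), with group means removed (squares) and also without shRNA replicate 8 (triangles). Grey bars give the median of the same microRNA rows with all 13035 mRNAs over 11 hearts. The miR-126 family goes from -0.64 over 11 hearts to 0.04 within groups without shRNA heart 8.

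The miR-29 family is known for its collagen and elastic fibre targets, which were higher in the upper set. Its most abundant row here, mir-29a, was at 13.7 and 14.8 MFPKM in the wild type hearts, at 13.7 and 13.9 in the untreated mutants, at 13.7, 13.2 and 12.6 in the control-virus mutants and at 13.6, 12.6, 13.6 and 12.4 in shRNA hearts 5 to 8. The control-virus mutants overlapped every other group. The shRNA hearts lay below the wild type and untreated hearts by a narrow margin, with a highest value of 13.62 against a lowest of 13.66 MFPKM. Mir-29c, which has the same seed and a lower level, was at 0.0397 and 0.0505 MFPKM in the wild type hearts, above the 0.0121 to 0.0306 MFPKM of the mutant hearts without shRNA. In the shRNA hearts it was at 0.0164 to 0.0300 MFPKM, within that range. Its log2 difference between control-virus mutant and wild type hearts was -1.08 (SE 0.44, limma adjusted p = 0.18). Col1a1, the main fibrillar collagen chain, was at 33.7 to 42.7 aligned FPKM in the lower set and at 139 to 220 in the upper set. Col3a1 was at 53.3 to 93.9 and at 224 to 496, and the fibrillin gene Fbn1 at 10.7 to 16.7 and at 32.5 to 52.4. The 7 fibroblast markers, Col1a1 among them, summed to 996 to 1302 in the lower set and to 2401 to 2950 in the upper set, none at 0 in any heart. Their part in the collagen values was not tested. The correlation of mir-29a with Col1a1 was -0.28 overall and -0.36 within groups, with Col3a1 -0.40 and -0.44, and with Fbn1 -0.21 and -0.06. Without shRNA heart 8 these values within groups were 0.55, 0.07 and 0.93 (exact permutation p = 0.19 for Col1a1 and 0.021 for Fbn1), so that heart set the sign. Over the family, 32 of 60 pairs (53.3%) were negative over all 11 hearts, against 50.4% for all mRNAs, with a median of -0.13. The median was -0.07 within groups. Without shRNA heart 8 it was 0.27, with 12 of the 40 pairs still above the filters negative. These medians are therefore not over the same pairs.

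In the miR-30 family, mir-30e was low where connective tissue growth factor, Ctgf, was high. Mir-30e was at 0.369 and 0.197 MFPKM in the wild type hearts, at 0.159 and 0.130 in the untreated mutants, at 0.116, 0.159 and 0.244 in the control-virus mutants and at 0.301, 0.390, 0.310 and 0.184 in shRNA hearts 5 to 8. Wild type 3 and control-virus mutant 3 overlapped. Ctgf was at 64.4 and 118 aligned FPKM, at 1133 and 1262, at 1187, 1059 and 725, and at 57.7, 97.0, 99.1 and 620 in the same order. In the wild type, untreated and control-virus groups the heart with most mir-30e had the least Ctgf, and in the shRNA group it did not. The correlation was -0.87 overall (rho -0.90), -0.73 within groups (exact permutation p = 0.019, adjusted p = 0.49), -0.66 without shRNA heart 8 (exact permutation p = 0.18) and -0.80 within the upper set (exact permutation p = 0.054). The 5 rows of the family with 14 listed targets had 44 of 70 pairs negative (62.9%, median -0.36), against 50.9% of pairs with all mRNAs. Within groups the median was -0.16, and without shRNA heart 8 it was -0.02. Mir-30a with Hspa5, a chaperone of the endoplasmic reticulum, had the smallest p of the family and was positive (0.46 over all 11 hearts, 0.89 within groups, exact permutation p = 0.016).

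**Figure D5:**
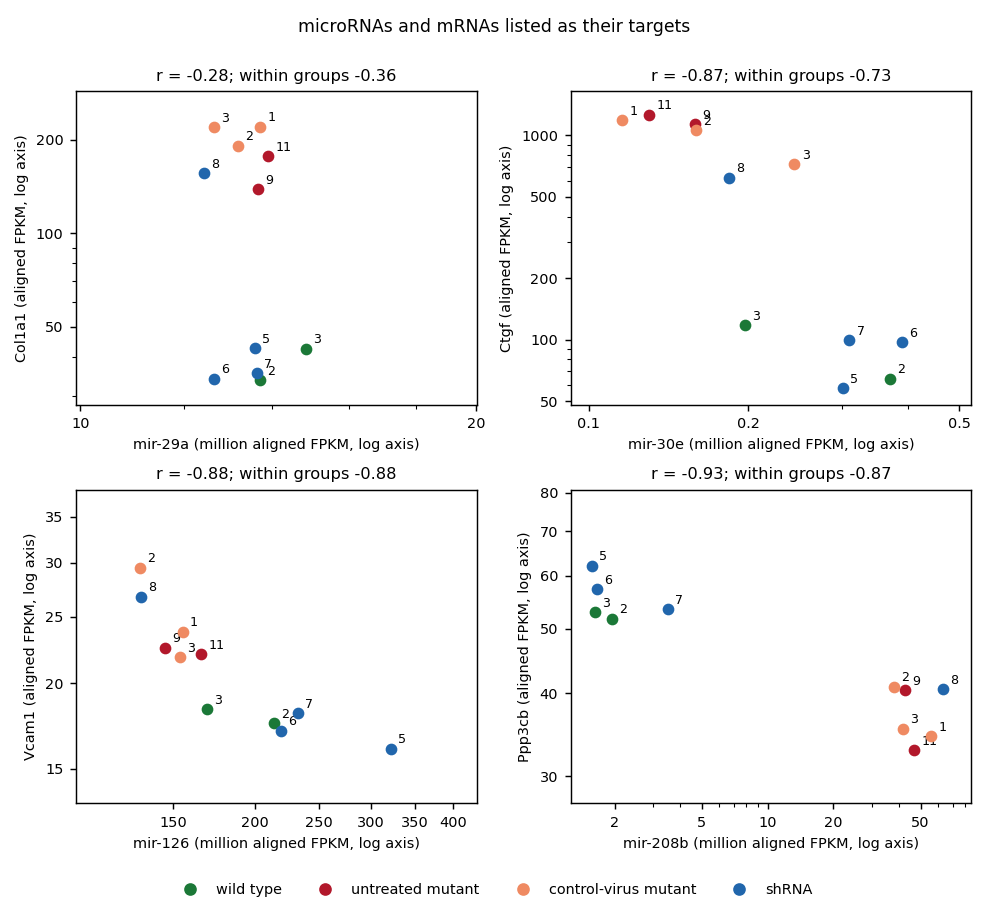
MicroRNA level (x axis, MFPKM, log axis) against the level of a listed target mRNA (y axis, aligned FPKM, log axis) in each of 11 hearts, coloured by group and numbered by replicate. Col1a1 splits into 2 levels while mir-29a stays between 12.4 and 14.8 MFPKM; mir-30e runs opposite to Ctgf, mir-126 to Vcam1 and mir-208b to Ppp3cb.

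Mir-126, the endothelial microRNA, was negatively related to 6 of its 7 listed targets (median -0.64 over all 11 hearts, -0.70 within groups). Over the 11 hearts this was 85.7%, against 50.9% of its pairs with all mRNAs. It was at 169 to 322 MFPKM in the lower set and at 134 to 166 MFPKM in the upper set, shRNA heart 5 being the highest. Vcam1, an adhesion molecule for leukocytes, was at 16.0 to 18.3 aligned FPKM in the lower set and at 21.8 to 29.5 in the upper set. Its correlation with mir-126 was -0.88 overall (rho -0.93), -0.88 within groups (exact permutation p = 0.010, adjusted p = 0.49), and -0.85 within the upper set (exact permutation p = 0.044). In the limma fit each doubling of mir-126 went with a fall of Vcam1 (slope -0.58, SE 0.14, adjusted p = 0.045). Crk, a signalling adaptor, had -0.86 and -0.76, Cxcl12, a chemokine, had -0.69 overall and -0.80 within groups (exact permutation p = 0.019), and Spred1, an inhibitor of Ras signalling, -0.64 and -0.70 (exact permutation p = 0.16). Within groups without shRNA heart 8, Vcam1 had -0.58, Crk -0.30, Cxcl12 -0.50 and Spred1 0.05, and the median of the 7 targets was 0.04. In the upper set that median was -0.26. With the values as deposited, 0.871% of the 8263 mRNAs called for mir-126 rose with it. A negative sign was not particular to the listed targets there. Macrophage markers moved with the sets: the 6 genes summed to 331 to 446 aligned FPKM in the lower set and to 944 to 1580 in the upper set, none at 0. The 6 endothelial markers summed to 465 to 528 in the lower set and in shRNA heart 8, and to 337 to 435 in the mutants without shRNA. The part of either cell type in these correlations was not tested.

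For mir-21, 8 of 14 listed targets were negative overall (median -0.12). The growth factor inhibitor Spry1 had r = 0.38 overall and -0.08 within groups, and the translation inhibitor Pdcd4 -0.25 and -0.62 (exact permutation p = 0.095). With the values as deposited, Spry1 had 0.11 and Pdcd4 0.03 within groups. The most negative was Tpm1, tropomyosin 1, with -0.74 overall and -0.91 within groups (exact permutation p = 0.021), -0.61 without shRNA heart 8 and -0.11 within the upper set.

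Mir-208b and mir-499 moved in opposite directions between the sets. Over the 11 hearts the targets named here correlated with them with opposite sign. Sox6, a repressor of slow muscle genes, was at 6.28 to 9.86 aligned FPKM in the lower set and at 5.04 to 7.71 in the upper set. It had r = -0.76 with mir-208b and 0.70 with mir-499 (within groups -0.56 and 0.71, exact permutation p = 0.36 and 0.054). Med13, a subunit of the Mediator complex, had -0.55 and 0.50. Within groups with the values as deposited, Sox6 and mir-208b had 0.04 and Med13 had 0.20 with mir-208b and -0.08 with mir-499, so that these directions depend on the alignment. Within groups mir-208b had 0.32 with Sox6 and 0.41 with Med13 when shRNA heart 8 was left out. Mir-499 had at least 0.41 with Sox6 and 0.34 with Med13 whichever heart was left out. Without heart 8 both microRNAs thus had the same sign with Sox6 and Med13. Calcineurin, the phosphatase that drives hypertrophic signalling, has the catalytic subunit genes Ppp3ca and Ppp3cb. Ppp3cb was at 51.7 to 62.1 aligned FPKM in the lower set and at 32.8 to 40.9 in the upper set, without overlap. Its correlation with mir-208b was -0.93 overall and -0.87 within groups (exact permutation p = 0.0017, the smallest that the arrangements allow, adjusted p = 0.28). It was -0.62 without shRNA heart 8 (exact permutation p = 0.063) and -0.10 within the upper set. Ppp3ca with mir-499 had 0.93 over all 11 hearts, 0.94 within groups (exact permutation p = 0.016) and 0.32 without shRNA heart 8. Named after their values were seen, Ppp3ca with mir-208b had -0.94 overall and 0.18 within groups without shRNA heart 8, and Ppp3cb with mir-499 had 0.96 overall. Over the 3 rows of the family 11 of 27 pairs were negative.

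The other families had medians on both sides of 0. The highest median over 11 hearts among families with at least 7 pairs was that of miR-125, at 0.41 (15 pairs, 4 of them negative). MiR-27 had a median of -0.36 over 11 hearts and 0.07 within groups (14 pairs). Let-7 had 97 of 165 pairs negative overall (median -0.18) and 84 within groups (median -0.01, and -0.04 without shRNA heart 8). Its smallest p-values within groups belonged to let-7c-1 with Irs2, an adaptor of the insulin receptor (-0.92, exact permutation p = 0.0017), and with Nras, a Ras gene (0.83, exact permutation p = 0.0017), which had opposite signs. The miR-24 family had 8 of 10 pairs negative overall and 9 within groups (median -0.55, and -0.28 without shRNA heart 8), among them mir-24-1 with Furin, a protein-cutting enzyme (-0.87, exact permutation p = 0.019, and 0.15 with the values as deposited). The miR-26 family had 10 of 16 negative over all 11 hearts, with mir-26b and Plcb1, a phospholipase, at -0.88 within groups (exact permutation p = 0.024) and a family median of -0.14 without shRNA heart 8. In the miR-15 and miR-16 family 29 of 55 were negative, and the smallest p was for a positive pair, mir-16-2 with the cyclin Ccnd3 (0.93, exact permutation p = 0.0017). Mir-195 with Bcl2, a survival gene, had 0.70 overall and 0.38 within groups. Mir-150 with Egr2 had -0.88 over all 11 hearts, -0.78 within groups and -0.04 without shRNA heart 8. None of these pairs passed after adjustment of the exact permutation p-values. The limma fit called let-7c-1 with Irs2 (adjusted p = 0.020), mir-150 with Egr2 (adjusted p = 0.029) and 6 further let-7 pairs, all positive. Mir-1, a major microRNA of heart muscle, could not be assessed: its row mir-1-1 was at most 0.051 MFPKM and was listed at 0 in 3 hearts. Its values with Gja1, Kcnj2 and Hand2 were 0.32, 0.57 and 0.35 overall. The mir-133a pairs were below the filters.

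With a group term, limma called 3663 mRNAs (28.1% of 13035) for mir-208b, 3116 (23.9%) for mir-499, 969 (7.43%) for mir-126, 860 (6.6%) for mir-21 and 848 (6.51%) for mir-199b. For 34 of the 155 rows at least 1 mRNA was called. The largest count was 3681, for mir-122, a microRNA of liver cells. Rows mir-1-2-as (3604), mir-369 (3090), mir-150 (3049) and mir-101a (3011) had counts of similar size, so mir-208b and mir-499 did not stand out. For mir-17, 8 were called (0.0614%). They included Per1, a gene of the circadian clock, which rose with it (slope 3.37, SE 0.28, adjusted p = 0.0047), and Ccr2, a receptor of monocytes, which fell (slope -4.38, SE 0.59, adjusted p = 0.049). For mir-30e, mir-29a, mir-486 and mir-27b none was called. Without shRNA heart 8 the counts for mir-208b, mir-499, mir-126, mir-21 and mir-199b were 0. For mir-17 the count was then 1, Gdf15, and neither Per1 (slope 2.84, limma adjusted p = 0.59) nor Ccr2 was called. Without that heart 716 mRNAs had an unadjusted limma p under 0.05 for mir-208b and 647 for mir-499. Of the mRNAs called for mir-208b 46.9% rose with it, but 88.4% of 2287 did with the values as deposited. For mir-499 this share was 52.1% after alignment and 11.9% of 2019 as deposited, and for mir-126 it was 44.9% and 0.871% of 8263. The genes with the smallest p for mir-208b were Leprel1 and Slc7a5, an amino acid transporter (slopes 0.50 and 0.38), and, against it, Klhl23, Gpt, an aminotransferase, and Slc2a12, a sugar transporter (slopes -0.44, -0.69 and -0.54, adjusted p = 0.00012 for each). For mir-499 they were Abcb4 and Adh1 (slopes 1.17 and 1.11) and, against it, Uchl1, a neuronal hydrolase, Tspo, a mitochondrial membrane protein, and the macrophage gene Ms4a7 (slopes -1.91, -1.18 and -1.54).

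The differences between groups are given for both members of a pair. Set against wild type hearts, control-virus mutant hearts had 24.9-fold more mir-208b (log2 difference 4.64, SE 1.31, limma adjusted p = 0.080) and 6.61-fold more Myh7 (log2 2.73, SE 0.77, adjusted p = 0.058). Set against control virus, shRNA hearts had 3.17-fold more mir-499 (log2 1.66, SE 0.38, adjusted p = 0.097), and Myh7b rose 1.71-fold (log2 0.78, SE 0.22, adjusted p = 0.044). Host gene 2010111I01Rik rose 2.13-fold in mutant hearts (log2 1.09, SE 0.28, adjusted p = 0.048) and fell 2.21-fold with shRNA (log2 -1.15, SE 0.23, adjusted p = 0.028). Mir-27b differed by 0.86 and -1.13 on the log2 scale in these comparisons (SE 0.58 and 0.49, adjusted p = 0.39 and 0.21). Both comparisons use the same 3 control-virus hearts.

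Of the 155 microRNA rows limma called none in any of the 3 comparisons (0.0%), with 33, 33 and 5 at an unadjusted p under 0.05 for mutant against wild type, shRNA against control virus and control virus against no virus. Of the 13035 mRNAs it called 823 for mutant against wild type (6.31%), 510 of them higher (3.91%) and 313 lower (2.4%). For shRNA against control virus it called 2017 (15.5%), 938 of them higher (7.2%) and 1079 lower (8.28%). With the values as deposited the splits were 32 higher and 117 lower, and 3517 higher and 171 lower, and the median over all mRNAs shifted to -0.11 and 0.47 on the log2 scale. For control virus against no virus it called none (0.0%, 590 at an unadjusted p under 0.05). Leaving out shRNA heart 8 gave 23 microRNA rows and 4697 mRNAs in the first comparison, and 37 rows and 6309 mRNAs in the second. Leaving out any 1 wild type or control-virus heart gave 0 to 2 mRNA calls in the first, and any 1 control-virus or other shRNA heart gave 9 to 54 in the second.

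Among the 42 host genes 3 were called for mutant against wild type, 2 of them higher, and 8 for shRNA against control virus, 3 of them higher. These shares, 7.14% and 19%, were near the 6.31% and 15.5% of all mRNAs. Pde4d, a phosphodiesterase that breaks down cyclic AMP and carries mir-582, fell 2.21-fold in mutant hearts (log2 -1.14, SE 0.22, limma adjusted p = 0.035) and rose 1.87-fold with shRNA (log2 0.90, SE 0.19, adjusted p = 0.029). Srebf2, the sterol regulator that carries mir-33, rose 1.61-fold in mutant hearts. It fell 1.41-fold with shRNA, where the log2 difference of -0.50 was 0.00058 with the values as deposited. The other host genes called for shRNA were Nfyc (higher, log2 0.42), Chpf2, Ctdspl and Pde2a (lower, log2 -0.93, -0.78 and -0.58). With the values as deposited these 4 were 0.92, -0.44, -0.30 and -0.07. Their microRNAs, mir-671 for Chpf2 and mir-26a-1 for Ctdspl, had r = 0.69 and 0.29 with them over 11 hearts, and -0.25 and -0.45 within groups without shRNA heart 8.

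Among the 192 target genes 22 were called for mutant against wild type, 18 of them higher, and 41 for shRNA against control virus, 11 of them higher. These were 11.5% and 21.4%, beside 6.31% and 15.5% of all mRNAs. The miR-29 targets made up much of this. Of its 20 genes 9 rose in mutant hearts and none fell (median log2 difference 1.19), and 11 fell with shRNA and none rose (median -0.88). Col1a1 rose 5.42-fold and fell 3.88-fold (adjusted p = 0.039 and 0.033), and Col3a1 rose 7.59-fold and fell 3.90-fold (adjusted p = 0.031 and 0.028). The matrix protease Mmp2 rose 2.81-fold and fell 2.13-fold. Mir-29a differed by -0.12 and -0.01 on the log2 scale in these comparisons (adjusted p = 0.58 and 0.93). Of the 14 miR-30 targets 4 rose in mutant hearts, and 4 fell and 1 rose with shRNA. Ctgf, the largest of these differences, was 11.0-fold higher (log2 3.46, SE 0.79, adjusted p = 0.040) and 7.06-fold lower (log2 -2.82, SE 0.66, adjusted p = 0.035). Mir-30e differed by -0.71 between mutant and wild type hearts (SE 0.41, adjusted p = 0.32). None of the 7 miR-126 targets was called in either comparison, and of the 14 miR-21 targets 1 fell with shRNA. Kcnj2, an inward rectifier potassium channel and listed target of mir-1, fell 2.49-fold in mutant hearts and rose 2.53-fold with shRNA (adjusted p = 0.035 and 0.022). The wild type hearts were male and the control-virus mutants female, so that sex and group cannot be told apart in the first comparison. In the second, shRNA hearts 5, 6 and 7 were male and only heart 8 was female, so sex and group nearly coincide there too. The part of sex was not tested.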

How the data were processed

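Hearts were matched by animal name between the small RNA and the polyA table. The authors deposited FPKM values, 1 column per library. Per the submitters' processing notes, FastQC 0.11.2, STAR 2.40, Cufflinks 2.2.1, Cuffdiff and mouse build mm9 were used; no source used here gives the role of each, the annotation or the treatment of reads that match several hairpins. Each table was filtered on its mean, aligned on the median log2 deviation of rows above 0 in every library (129 and 12817 rows) and taken as log2(FPKM + 1000) or log2(FPKM + 1). A fold change is on that scale and understates low rows.

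Pearson correlations within groups were tested by exact permutation, and fits across all rows used limma 3.58.1 in R 4.3.3 (lmFit, eBayes with a trend, two-sided, Benjamini-Hochberg threshold 0.05). The scripts were tested on simulated data. Replicate numbers name separate animals. The pairs described one by one were set by a rule: fixed host and target pairs, the 8 further host pairs and up to 4 target pairs a family with the smallest exact p, and the mRNAs with the smallest limma p. Some pairs set by this rule are not reported here. The rule, the members and all lists were chosen with earlier results of these data known. Alternatives were pseudocounts, filters, no alignment, rank correlation, quantile normalization, robust fits, a replicate block and leaving out hearts. The upper set alone, removal of sex means, hosts read from the annotation and Myh6 without the hearts at 0 were added after seeing the data.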

Additional observations from a re-analysis of the deposited data

Results flagged for a closer look

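In the shRNA group of 4 hearts, replicate 8 stood apart from the other 3 for 7 of 24 microRNAs and genes described by heart. Its distance to the nearest heart, as a share of the range of the group, was 0.969 for mir-208b, 0.852 for mir-21, 0.883 for Myh7, 0.894 for 2010111I01Rik, 0.926 for Ctgf, 0.929 for Col1a1 and 0.9 for Col3a1; each is above the 95% critical value of Dixon's test for 4 samples. Chance alone would mark about 1 in 20 such groups, and the 7 rows are correlated with each other. These shares were taken on aligned FPKM, not on the log2 scale of the other tests, and that choice favours a high outlier. They were not computed on log2 values. Replicate 8 was the highest heart of its group in each case. It was also the only female heart of its group.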

How the results depend on the processing

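The number of reads is unknown, the groups hold 2 to 4 hearts, sex and set nearly coincide, and a zero may be a failed estimate. Of the counts, 67 values under other settings stayed within 1.5 times and 11 did not, and 90 and 31 with 1 heart left out. With group means kept, 9 host pairs and 39 target pairs passed after adjustment. Of the host pairs left by a stricter filter, 24 were positive within groups. For mir-208b, 6580 mRNAs were called without a group term and 2287 with the values as deposited, and 0 to 3693 with 1 heart left out. With a replicate block on the shared numbers 2 and 3, 23 microRNA rows and 3098 mRNAs differed between mutant and wild type hearts. The numbers share only a number: across rows, the difference between hearts 2 and 3 of the 2 groups had r = -0.01 for microRNA and -0.17 for mRNA. The mRNA count was 149 with no filter and 149 as deposited, and for shRNA against control virus 608 and 3688. With 1 heart left out, microRNA rows numbered 0 to 23 for mutant against wild type and 0 to 37 for shRNA against control virus, and mRNAs 0 to 4697, 9 to 6309 and, for control virus against none, 0 to 4.

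For named pairs within groups, these signs reversed. In the upper set alone: mir-208a with Myh6 -0.0099, mir-21 with Vmp1 0.051, mir-126 with Egfl7 -0.15, mir-199b with Dnm1 -0.19, mir-29a with Fbn1 0.37, and mir-499 with Sox6 -0.19, Med13 -0.21 and Ppp3ca -0.48. With group means kept: mir-21 with Vmp1 0.0071 and Spry1 0.38, mir-378 with Ppargc1b 0.20, mir-1-1 with Hand2 0.35. As deposited: mir-21 with Vmp1 0.15, Spry1 0.11 and Pdcd4 0.026, mir-126 with Egfl7 -0.87, mir-30e with Nfyc -0.13, mir-140 with Wwp2 0.38, mir-208b with Sox6 0.042 and Med13 0.20, mir-499 with Med13 -0.083, mir-24-1 with Furin 0.15. By Spearman's rho: mir-126 with Egfl7 -0.063, mir-29a with Col1a1 0.14 and Fbn1 0.21, mir-21 with Spry1 0, mir-1-1 with Hand2 0.071. Without the 2 hearts farthest from the median: mir-378 with Ppargc1b 0.055, mir-30c-1 with Nfyc -0.56, mir-140 with Wwp2 0.046, mir-29a with Col1a1 0.37 and Fbn1 0.85, mir-21 with Spry1 0.085. With group and sex means removed: mir-140 with Wwp2 0.036, mir-29a with Col1a1 0.58 and Fbn1 0.89, mir-208b with Sox6 0.39, Med13 0.57 and Ppp3ca 0.19, mir-499 with Med13 -0.20 and Ppp3cb -0.043, mir-195 with Bcl2 -0.38, mir-126 with Spred1 0.021, mir-361 with Chm -0.80. In that setting untreated mutants 9 and 11 and shRNA heart 8 are each alone in their group and sex and add nothing. It therefore amounts to leaving these hearts out, heart 8 among them, and cannot tell the part of sex. Under quantile normalization mir-126 differed by 0.22 (mutant against wild type) and mir-29a by 0.18 (shRNA against control virus), the latter by 0.0035 with no filter. With 1 heart left out, ranges that crossed 0 were mir-208a with Myh6 -0.0498 to 0.41, mir-378 with Ppargc1b -0.43 to 0.17, mir-30c-1 with Nfyc -0.042 to 0.56, mir-140 with Wwp2 -0.35 to 0.19, mir-29a with Col1a1 -0.56 to 0.55, Col3a1 -0.62 to 0.066 and Fbn1 -0.31 to 0.93, mir-21 with Spry1 -0.64 to 0.21, mir-208b with Sox6 -0.88 to 0.32, Med13 -0.68 to 0.41 and Ppp3ca -0.96 to 0.18, mir-195 with Bcl2 -0.21 to 0.79, mir-126 with Spred1 -0.85 to 0.053, mir-1-1 with Hand2 -0.22 to 0.016, mir-361 with Chm -0.058 to 0.87, and the difference of mir-29a between shRNA and control virus -0.025 to 0.029. The cause was not tested. Of the remaining values of named pairs and genes, 716 under other settings and 1035 with 1 heart left out stayed the same. They kept direction and side of the threshold, or, for counts of mRNAs, stayed within 1.5 times. Under other settings 17 lost the threshold and 27 gained it. With 1 heart left out 127 lost it and 22 gained it. Counts of mRNAs that moved further numbered 25 and 53.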

Other observations

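MicroRNAs of blood and liver tracked the mRNA markers of the same tissues heart by heart. These pairs were chosen after values had been seen. Mir-451, which is made in red cell precursors, ranged from 9.33 MFPKM in untreated mutant 9 to 45.7 MFPKM in shRNA heart 7. Alas2, the haem synthesis enzyme of red cells, was at 5.85 and 55.2 aligned FPKM in these same hearts. Mir-451 and Alas2 had r = 0.83 over 11 hearts and 0.85 within groups (exact permutation p = 0.0087). Within the 5 hearts of the lower set r was 0.96. The 3 globin genes, Hba-a1, Hbb-b1 and Hbb-b2, had 0.81, 0.77 and 0.81 with mir-451 within groups (exact permutation p = 0.0087, 0.012 and 0.010). In the limma fit across all mRNAs Alas2 did not pass for mir-451 (adjusted p = 0.26). Control-virus mutant 1 had the most Alas2, 64.6, with 16.9 MFPKM of mir-451.

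Mir-122, the main microRNA of liver cells, was highest in wild type heart 3, at 1.24 MFPKM, followed by shRNA heart 6 at 0.918 MFPKM. The same 2 hearts were the highest for albumin mRNA, Alb, at 65.0 and 9.58 aligned FPKM, and for the apolipoprotein Apoa1, at 18.1 and 5.08. The upper set had 0 to 0.103 MFPKM of mir-122 and 0 to 0.253 of Alb. Within groups r was 0.65 with Alb (exact permutation p = 0.042) and 0.80 with Apoa1 (exact permutation p = 0.021). It was 0.90 with either gene within the 5 hearts of the lower set. Ttr, another liver gene, had 0.22 within groups.

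Host pairs read from the RefSeq annotation by position, 59 in number with 41 in common with the list used above, gave 38 positive correlations over 11 hearts (median 0.20) and 36 within groups (median 0.13). Mir-361 with its host Chm, named after its value was seen, had 0.90 over 11 hearts, 0.74 within groups and -0.06 without shRNA heart 8.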
